A study of Mus musculus with 24 samples.

Results

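The 10 genes described here carry iron through the brain: transferrin (Trf), its receptor (Tfrc) and the divalent metal transporter (Slc11a2) for uptake, the ferritin chains Fth1 and Ftl1 for storage, ferroportin (Slc40a1) and ceruloplasmin (Cp) for export, the iron-sensing proteins encoded by Aco1 and Ireb2, and haem oxygenase (Hmox1) for haem breakdown. They were chosen by symbol, for their function, from the 24411 genes listed in each table, with earlier results of these data known, the higher Trf values among them. Group differences of these genes are therefore given as a description, with no test of the genes as a set.

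RNA was sequenced from aged male mice of strain C57/Bl6, 20 months old, for which no transgene or knockout is named, and which received 8 tail vein injections of 100 μl over 24 days. Whole hippocampi came from a saline group (n = 5), a young plasma group (n = 6), which received the young blood plasma preparation, and a group that received the young platelet fraction (n = 6). Both preparations were made from the blood of donors 3 months old, and the platelet fraction by pelleting platelets from plasma and taking them up in saline. Microglia, which are the macrophages that reside in the brain tissue, were isolated from the hippocampus with CD11b beads after myelin removal, from mice given saline (n = 3) or recombinant mouse PF4, a chemokine of platelets, at 5 μg ml−1 in saline (n = 4). The labels do not say whether a microglia library holds cells of 1 mouse or of several, so p-values there measure only the spread between libraries. All mice were perfused with saline buffer before the tissue was taken. Values are normalized counts, in which the authors divided each library's read count by a size factor. Hippocampal values are on 1 scale, set by the saline libraries that both hippocampal tables hold, and microglia were normalized separately, so a level is set across the tissues only as a ratio within a library or relative to its counted reads.

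Brain cells take up iron bound to transferrin through the transferrin receptor, or unbound iron through metal transporters, keep it inside ferritin shells built of heavy and light chains, and release it through ferroportin, with ceruloplasmin oxidizing the iron that leaves. Oligodendrocytes, the cells that form myelin, make transferrin and are rich in iron, while microglia take up iron and haem from debris and store it. Iron regulatory proteins 1 and 2, the products of Aco1 and Ireb2, bind a hairpin in target mRNAs when iron is scarce: in the 5′ untranslated region (UTR) binding blocks translation, and in the 3′ UTR of the transferrin receptor mRNA it protects the message from decay.

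Such hairpins were found by sequence in 4 of the 10 genes and are shown for what they act on. In the 5′ UTR of 3 of these genes that is translation. In Tfrc it is the amount of mRNA, which is what was measured here. The sequences are from the GENCODE M21 transcripts on GRCm38 (mm10), written 5′ to 3′ in DNA letters, with the loop of 6 bases in capitals.
Fth1 5′ UTR, chr19:9982731-9982760, plus strand: tttcctgcttcaaCAGTGCttgaacggaac
Ftl1 5′ UTR, chr7:45459779-45459808, minus strand: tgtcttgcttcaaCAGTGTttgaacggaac
Slc40a1 5′ UTR, chr1:45925465-45925494, minus strand: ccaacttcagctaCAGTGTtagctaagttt
Tfrc 3′ UTR, chr16:32631218-32631247, plus strand: taattatcggaagCAGTGCcttccataatt
Tfrc 3′ UTR, chr16:32631597-32631626, plus strand: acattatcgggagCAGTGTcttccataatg
Tfrc 3′ UTR, chr16:32631662-32631691, plus strand: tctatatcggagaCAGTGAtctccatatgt
Tfrc 3′ UTR, chr16:32631709-32631738, plus strand: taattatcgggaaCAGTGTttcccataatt
The search asked for an unpaired C, 5 bases, the loop CAGTG followed by A, C or T, and 5 bases that all pair with those before the loop, G with T allowed, on the sense strand of the transcript. A match was found in the 5′ UTR of 16 of 19348 genes (0.0827%) and in the 3′ UTR of 84 of 20456 genes (0.411%). The other 6 genes had no match to these letters in the transcripts searched. A match is a description of the sequence and was not measured as a binding site.

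In the hippocampus the libraries held 6140510 to 10522699 counted reads and in microglia 19855188 to 36342162. On the first principal component of the 17 hippocampal libraries (27.3% of the variance) 5 libraries stood apart, at 25.15 to 44.19 against −25.62 to −3.94 in the other 12: saline mice 7146 and 7152, young plasma mice 7147 and 7150 and young platelet fraction mouse 7148. In these 5, transcripts with longer sequence had lower values, by a slope of −0.554 to −0.107 log2 units per log10 unit of length, against −0.228 to 0.499 in the other 12. Microglia libraries held Cx3cr1 and the other microglia markers at high levels (11 of 11 found, summed normalized count 1061238 to 1459933), and 3 of the 7, saline replicate 2 and PF4 replicates 2 and 4, also held Ttr, a transcript of the choroid plexus, at 197501 to 501960, against 641 to 884 in the other 4. Differences of the 10 genes from saline are given with and without these libraries.

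Differences between groups were fitted with limma on log2(normalized count + 1) over all genes that reached a normalized count of 10 in at least 5 hippocampal or 3 microglia libraries, a scale that understates the change of low genes. All 10 iron genes passed this minimum in every comparison. The threshold was the study's own, a nominal P of 0.05 in hippocampus and of 0.01 in microglia. After the young blood plasma preparation 1 of the 10 genes passed it (Trf, higher), where 3.35% of all 13594 genes tested did. After the young platelet fraction 2 of 10 did (Trf and Fth1, higher), where 3.87% of 13603 genes did. Between the young platelet fraction and the young blood plasma preparation 0 of 10 did, by limma, edgeR and DESeq2 alike, where 1.89% of 13693 genes did. In microglia 0 of 10 passed after PF4 by the 3 tools, where 0.389% of 11320 genes passed 0.01 by limma. At an unadjusted P of 0.05 it was also 0 of 10 by the 3 tools. Of the 11320 genes, 391 passed 0.05 by limma, 257 by edgeR and 423 by DESeq2. Since the genes were chosen with results of these contrasts known, nothing is read from the counts. With Benjamini-Hochberg adjustment over all genes, none of the 10 passed 0.05 in any comparison by any of the 3 tools, and limma's smallest adjusted p over all genes was 0.785, after the young platelet fraction. Over all genes limma and edgeR called 0 at an adjusted p of 0.05 in every comparison, and DESeq2 called 11 after the young platelet fraction, 41 after PF4 and 0 in the other comparisons.

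**Figure D1:**
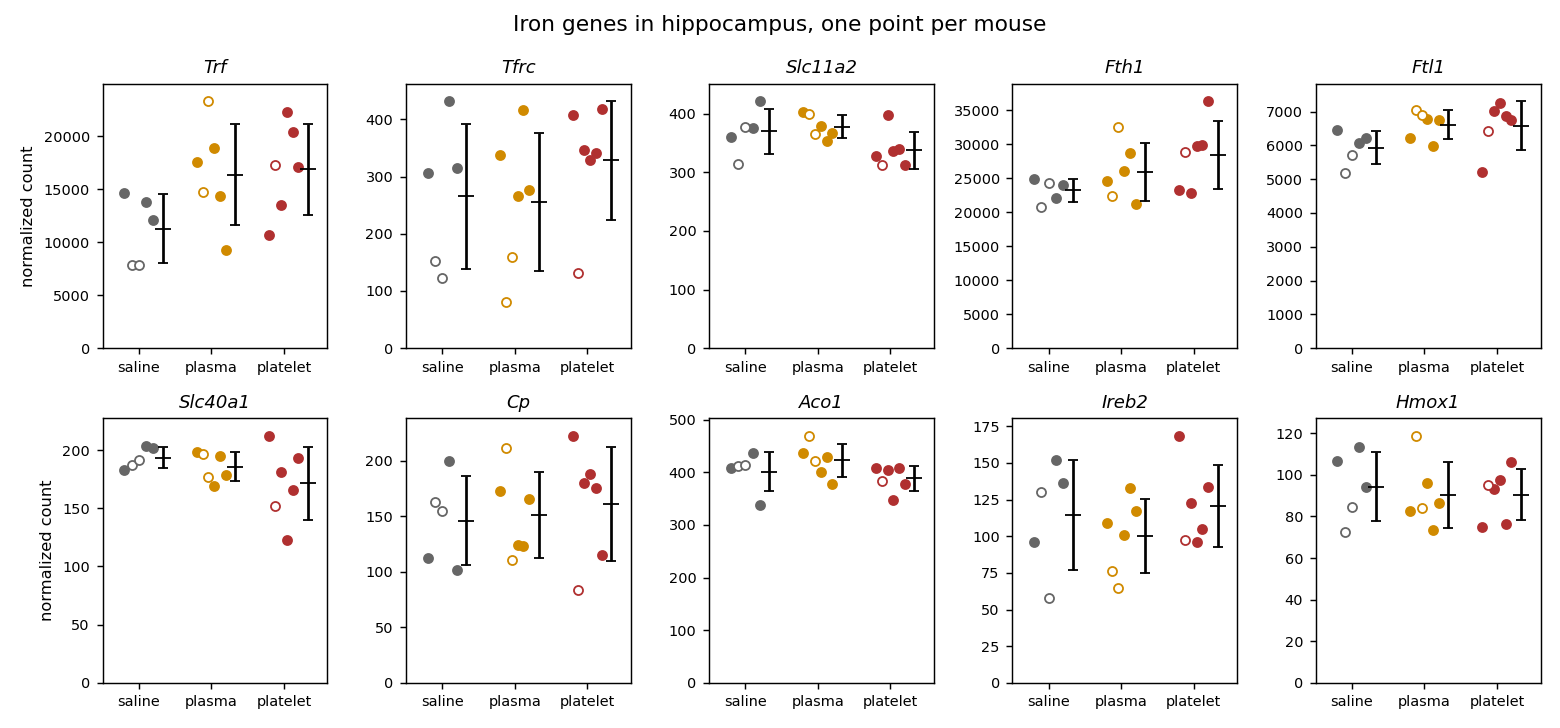
Normalized count of each iron gene in hippocampus, from 0 upwards, with a point per mouse in the saline (grey, n = 5), young plasma (orange, n = 6) and young platelet fraction (red, n = 6) groups and the mean ± SD as a black bar. Open points are the 5 libraries that stood apart; they hold the 5 lowest Tfrc values, 79.9 to 160.0.

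Trf, which encodes the iron carrier transferrin, had its lowest values in saline mice 7146 and 7152, both among the 5 libraries that stood apart. It lies on chromosome 9 from 103204001 to 103230444 on the minus strand (mm10), and a gene model on the same strand, Gm20425, shares sequence with it, so reads of the pair may be split. In saline hippocampi Trf was at 14678 in mouse 7143, 7859 in 7146, 7874 in 7152, 13809 in 7155 and 12132 in 7596. After the young blood plasma preparation it ran from 9271 to 23344 with a median of 16173, and after the young platelet fraction from 10712 to 22267 with a median of 17194. In each treated group 4 of 6 mice were above the highest saline mouse, none was below the lowest, and the groups overlapped. Among the 12 libraries that did not stand apart, young plasma mouse 7594 (9271) and young platelet fraction mouse 7145 (10712) were the lowest.

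The saline mice had a mean Trf of 11270 ± 3239 (SD, n = 5), the plasma mice of 16372 ± 4774 (SD, n = 6) and the platelet mice of 16876 ± 4263 (SD, n = 6). The log2 difference from saline was 0.53 ± 0.23 (SE) for the plasma preparation and 0.59 ± 0.21 for the platelet fraction, and the treatments differed from each other by 0.06 ± 0.21. Both treated groups were compared with the same saline mice. Leaving out the 5 libraries that stood apart brought the differences to 0.10 and 0.27, neither of which passed the threshold. For the plasma preparation the call was also lost without saline mouse 7146 (0.42) or 7152 (0.42), or without young plasma mouse 7144 (0.50), 7150 (0.42) or 7156 (0.48).

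Trf ran with the markers of oligodendrocytes in the hippocampus. All 15 markers were found in every group, and their summed normalized count was 41697 to 81403 after saline, 53539 to 119406 after the young blood plasma preparation and 65856 to 105997 after the young platelet fraction. Of the 15, 11 rose after the plasma preparation (median log2 difference 0.48 over the list, −0.01 over all genes tested) and 14 after the platelet fraction (0.58 against 0.00), and none fell. Without the 5 libraries that stood apart 1 of the 15 rose after the plasma preparation (median 0.21) and 5 after the platelet fraction (0.34). Mbp, a main protein of myelin, was at 25693 to 53197, 33568 to 77822 and 40717 to 68746 in the 3 groups. In bulk tissue more cells of a type and more RNA per cell cannot be told apart.

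Set against these markers within a library, Trf differed between groups by less than the spread between mice. The log2 value of Trf minus the mean log2 value of the 15 markers was 4.02 ± 0.21 (SD, n = 5) after saline, 4.10 ± 0.19 (SD, n = 6) after the plasma preparation and 4.03 ± 0.22 (SD, n = 6) after the platelet fraction. The lowest and highest mouse were at 3.77 and 4.33 with saline, 3.86 and 4.38 with plasma and 3.72 and 4.29 with platelets, so the ranges covered nearly the same span. With the marker mean as a covariate the fitted difference of Trf was 0.01 for the plasma preparation and −0.14 for the platelet fraction, and neither passed the threshold.

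Among mice of the same group, too, Trf followed the markers. Over the 17 hippocampi, after the group means were taken away, Trf and the marker mean correlated with Pearson's r = 0.882 (permutation within groups, 100000 draws, p = 6e-05, adjusted p = 0.0018 over 30 relations) and Spearman's rho = 0.797 (permutation p = 0.00058, adjusted p = 0.0174). Without the 2 mice farthest out on the marker axis r was 0.852. Among the 12 libraries that did not stand apart, centred on their own group means in a test chosen after seeing the data, r was 0.882 (permutation p = 0.00761) and rho 0.846 (permutation p = 0.00771), with adjusted p of 0.087 and 0.214 over the same 30 relations, so this relation passed before adjustment and not after it. Trf also ran with the choroid plexus mean among those 12 (r = 0.907, permutation p = 0.00189, adjusted p = 0.0567; rho = 0.783, permutation p = 0.0143, adjusted p = 0.214; r = 0.747 without the 2 farthest mice), though over all 17 that relation had r = 0.353 (permutation p = 0.195, adjusted p = 0.468) and rho = 0.343 (permutation p = 0.207, adjusted p = 0.587). Whether Trf follows one marker mean more closely than the other was not tested. The 30 relations were those of the 10 genes with the oligodendrocyte mean, the choroid plexus mean and the length slope of each library. The points share library scaling, so this is a relation between values of the same library.

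**Figure D2:**
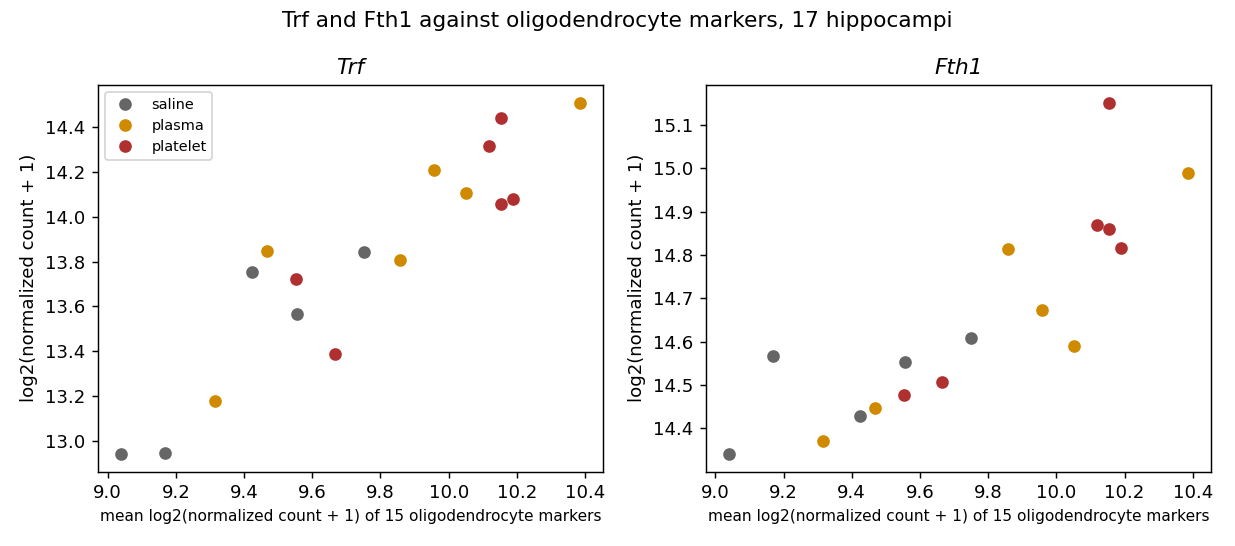
Log2(normalized count + 1) of Trf (left) and Fth1 (right) against the mean of 15 oligodendrocyte markers on the same scale, with a point per hippocampus (n = 17) coloured by group. Both genes climb along the marker axis, with r = 0.882 for Trf and r = 0.818 for Fth1 after the group means were taken away.

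Over 10627 genes whose normalized count averaged 50 or more, the 5 whose deviations from the group means were most like those of Trf were Gsn (r = 0.94), which encodes the actin-severing protein gelsolin, Mbp (r = 0.931), Tmem63a (r = 0.925), Tmbim1 (r = 0.923) and Mag (r = 0.921), a membrane protein of myelin, as a description over 17 libraries. Of the other iron genes, Fth1 (r = 0.64) and Ftl1 (r = 0.586) were the most like Trf, and Slc40a1 (r = −0.413) and Cp (r = −0.345) the least.

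Tfrc, the receptor that takes up iron-loaded transferrin, varied most among the 10 genes in hippocampus, and its lowest values were in the 5 libraries that stood apart, in all 3 groups. It lies on chromosome 16 from 32608920 to 32632794 on the plus strand. After saline Tfrc was at 306 in mouse 7143, 153 in 7146, 122 in 7152, 432 in 7155 and 315 in 7596. It ran from 79.9 to 416 (median 271) after the plasma preparation and from 131 to 418 (median 344) after the platelet fraction. The 5 libraries that stood apart were the 5 lowest, at 79.9 to 160.0, and the other 12 were at 266.6 to 431.5, with no overlap.

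The log2 difference of Tfrc from saline was −0.08 ± 0.42 (SE) for the plasma preparation and 0.37 ± 0.35 for the platelet fraction, and 0.45 ± 0.37 between them. Without the 5 libraries the differences from saline were −0.12 and 0.08, and 0.20 between the treatments. None passed the threshold. The Tfrc transcript, of 4890 bases and with its hairpins at the 3′ end, is among the longer ones here. Over the 17 hippocampi Tfrc ran with the length slope at r = 0.721 (permutation p = 0.00253, adjusted p = 0.019) and rho = 0.708 (permutation p = 0.00414, adjusted p = 0.0385). Without the 2 farthest mice r was 0.652. Because the Tfrc values fall into 2 separate clusters, the relation is also given among the 12 libraries that did not stand apart. There r was 0.157 (permutation p = 0.58, adjusted p = 0.791) and rho 0.14 (permutation p = 0.653, adjusted p = 0.83), with r = −0.118 without the 2 farthest mice. The part of transcript length in Tfrc was not tested.

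Slc11a2, the divalent metal transporter that moves iron out of endosomes, was the steadiest of the uptake genes. It lies on chromosome 15 from 100387898 to 100425072 on the minus strand, where Gm5475 overlaps it on the other strand. Values were 359, 315, 377, 376 and 422 in saline mice 7143, 7146, 7152, 7155 and 7596, 353 to 402 (median 373) after the plasma preparation and 312 to 398 (median 332) after the platelet fraction. Of the mice given the platelet fraction, 5 of 6 were below every mouse given the plasma preparation, and the sixth, mouse 7151, was within that group. The log2 difference was 0.04 ± 0.09 (SE) for plasma against saline, −0.13 ± 0.10 for platelets against saline and −0.16 ± 0.08 for platelets against plasma. The last passed the threshold only when mouse 7151 was left out, at −0.21. Without the 5 libraries that stood apart the differences were −0.04, −0.17 and −0.13.

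Fth1, the ferritin heavy chain, which oxidizes iron as it enters the shell, was the most abundant of the 10 transcripts in hippocampus. It lies on chromosome 19 from 9980598 to 9985098 on the plus strand. After saline it was at 24979 in mouse 7143, 20748 in 7146, 24260 in 7152, 22062 in 7155 and 24041 in 7596. It ran from 21171 to 32528 (median 25383) after the plasma preparation and from 22806 to 36407 (median 29292) after the platelet fraction, in which 4 of 6 mice were above every saline mouse.

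Means of Fth1 were 23218 ± 1754 (SD, n = 5) in saline mice, 25934 ± 4220 (SD, n = 6) in plasma mice and 28502 ± 5019 (SD, n = 6) in platelet mice. The log2 difference was 0.15 ± 0.11 (SE) for plasma (0.08 without the 5 libraries that stood apart), 0.28 ± 0.11 for platelets and 0.13 ± 0.13 between them. The platelet fraction's call was lost without saline mouse 7146 (0.24) or 7155 (0.26), without young platelet fraction mouse 7154 (0.26), 7157 (0.26) or 7595 (0.21), and without the 5 libraries that stood apart (0.24). Fth1 also followed the oligodendrocyte markers within groups (r = 0.818, permutation p = 0.00036, adjusted p = 0.0054; rho = 0.721, permutation p = 0.0039, adjusted p = 0.0385; r = 0.739 without the 2 farthest mice). Among the 12 libraries that did not stand apart r was 0.823 (permutation p = 0.0087, adjusted p = 0.087) and rho 0.685 (permutation p = 0.05, adjusted p = 0.375). With the marker mean as a covariate its difference after the platelet fraction was −0.04, which did not pass.

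Ftl1, the ferritin light chain, which helps the iron core to form, lies on chromosome 7 from 45457944 to 45459884 on the minus strand. The annotation holds 13 other genes that share at least 95% of 100 or more bases with it, 4 of them pseudogenes, so its counts are uncertain to the extent that reads were divided among copies. After saline it was at 6465 in mouse 7143, 5194 in 7146, 5721 in 7152, 6086 in 7155 and 6212 in 7596. It ran from 5974 to 7059 (median 6769) after the plasma preparation and from 5213 to 7270 (median 6801) after the platelet fraction, with 4 of 6 mice in each group above every saline mouse.

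The log2 difference of Ftl1 was 0.16 ± 0.07 (SE) for plasma and 0.15 ± 0.09 for platelets, and neither passed the threshold. The plasma value is close to it: it passed with edgeR, DESeq2, TMM scaling, scaling to library totals or a filter at 50, at 0.16 to 0.17, and without saline mouse 7143 (0.19) or young plasma mouse 7144 (0.18) or 7159 (0.19). The platelet value passed without young platelet fraction mouse 7145 (0.21), the lowest mouse of that group at 5213. Without the 5 libraries that stood apart the differences were 0.04 for plasma and 0.07 for platelets, and with the oligodendrocyte markers as a covariate 0.12 and −0.04.

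**Figure D3:**
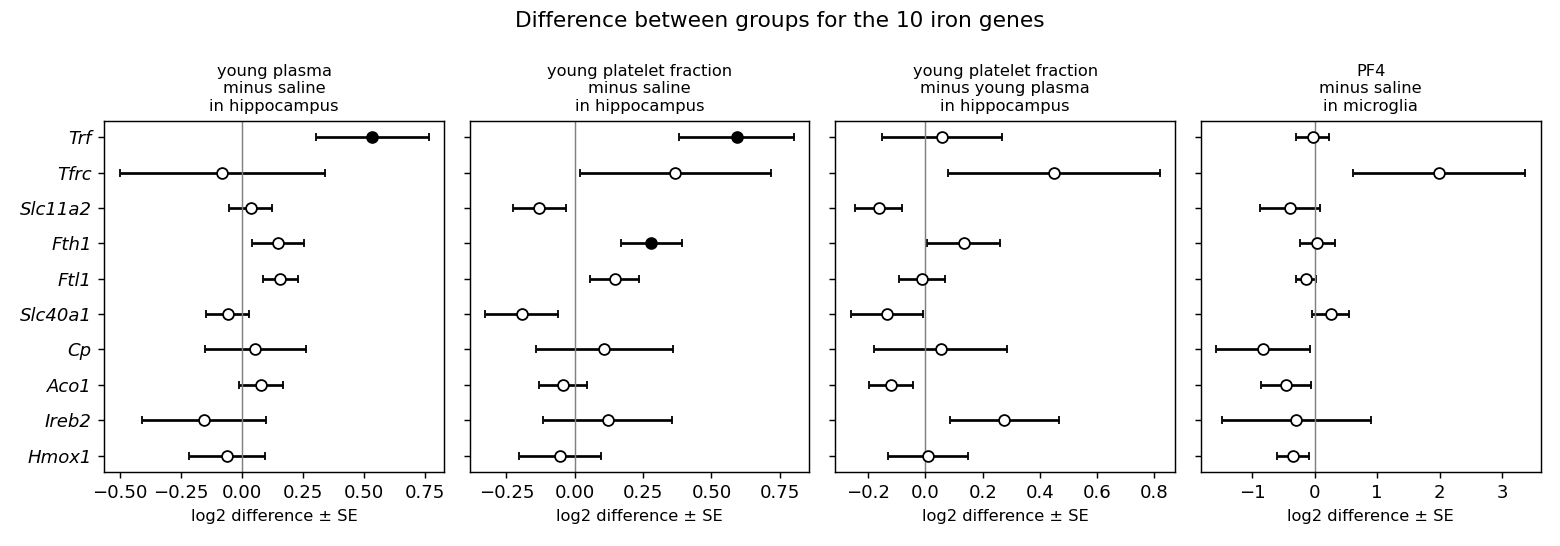
Log2 difference ± SE from limma for the 10 iron genes in the 4 comparisons, with filled points past the study's unadjusted threshold; the horizontal scale differs between panels. Trf passed in both comparisons with saline in hippocampus, at 0.53 and 0.59, Fth1 in that of the platelet fraction, at 0.28, and no gene in the other comparisons.

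Slc40a1, ferroportin, the iron exporter of the cell surface, lies on chromosome 1 from 45908068 to 45926523 on the minus strand. It was at 183, 187, 191, 204 and 202 in saline mice 7143, 7146, 7152, 7155 and 7596, a narrow spread. It ran from 169 to 198 (median 187) after the plasma preparation and from 123 to 212 (median 174) after the platelet fraction, in which 4 of 6 mice were below every saline mouse and 1 was above. The log2 difference was −0.06 ± 0.09 (SE) for plasma and −0.19 ± 0.13 for platelets, and −0.08 and −0.185 without the 5 libraries that stood apart, and none passed the threshold.

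Cp, ceruloplasmin, the copper enzyme that oxidizes exported iron and is anchored on astrocytes in the brain, lies on chromosome 3 from 19957054 to 20009145 on the plus strand, where Hps3 overlaps it on the other strand. Its values were 112, 163, 155, 200 and 102 in the saline mice in the same order, 111 to 212 (median 145) after the plasma preparation and 83.8 to 223 (median 178) after the platelet fraction. The groups overlapped almost fully, and the log2 differences were 0.06 ± 0.21 (SE) and 0.11 ± 0.25. The former was 0.13 without the 5 libraries that stood apart. The latter was 0.39 without the 5 libraries that stood apart and 0.68 with the oligodendrocyte markers as a covariate, and neither passed the threshold.

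Aco1, whose product is a cytosolic aconitase that turns into iron regulatory protein 1 when its iron-sulphur cluster is lost, was about as steady as Slc11a2. It lies on chromosome 4 from 40143081 to 40198338 on the plus strand. It was at 408, 412, 414, 436 and 337 in the saline mice in the same order, at 378 to 470 (median 426) after the plasma preparation and at 348 to 409 (median 394) after the platelet fraction. The log2 differences were 0.08 ± 0.09 (SE) and −0.04 ± 0.09, and 0.07 and −0.009 without the 5 libraries that stood apart.

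Ireb2, which encodes iron regulatory protein 2, a protein destroyed when iron is plentiful, lies on chromosome 9 from 54863789 to 54912530 on the plus strand. It was at 96.0, 130, 58.1, 152 and 137 in the saline mice in the same order, at 65.0 to 133 (median 105) after the plasma preparation and at 96.3 to 169 (median 114) after the platelet fraction. Its transcript is of 5770 bases. The 5 libraries that stood apart were at 58.1 to 130.1 against 95.9 to 168.6 in the other 12, with overlap. The log2 differences were −0.16 ± 0.26 (SE) and 0.12 ± 0.24, and −0.14 and −0.035 without those 5. Over the 17 hippocampi Ireb2 ran with the length slope (r = 0.685, permutation p = 0.00209, adjusted p = 0.019; rho = 0.681, permutation p = 0.00514, adjusted p = 0.0385; r = 0.581 without the 2 farthest mice). Among the 12 libraries that did not stand apart the relation did not hold, with r = 0.413 (permutation p = 0.278, adjusted p = 0.491) and rho = 0.217 (permutation p = 0.523, adjusted p = 0.83).

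Hmox1, which opens the haem ring and frees its iron, was low in hippocampus. It lies on chromosome 8 from 75093621 to 75100589 on the plus strand. It was at 107, 72.7, 84.6, 113 and 94.3 in the saline mice in the same order, at 73.5 to 119 (median 85.3) after the plasma preparation and at 74.9 to 106 (median 94.2) after the platelet fraction. The log2 differences were −0.06 ± 0.16 (SE) and −0.05 ± 0.15, smaller than the spread between mice. They were −0.30 and −0.23 without the 5 libraries that stood apart, and −0.08 and −0.32 with the oligodendrocyte markers as a covariate, and none passed the threshold.

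In reads per kilobase of transcript, scaled to 1e6 counted reads per library, the order of levels in the 17 hippocampi was Fth1 (3810 ± 619, SD), Ftl1 (900 ± 85.7), Trf (796 ± 245), Slc11a2 (16.3 ± 1.57), Aco1 (14.4 ± 1.24), Hmox1 (7.94 ± 1.23), Tfrc (7.93 ± 3.24), Slc40a1 (7.38 ± 0.914), Cp (5.18 ± 1.44) and Ireb2 (2.64 ± 0.719). The ranges of Ftl1 and Trf overlapped, as did those of Slc11a2 and Aco1 and those of each neighbouring pair from Hmox1 on, so the order within these is not beyond the spread between libraries. Fth1 stood above Ftl1 in every library, and Trf above Slc11a2.

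Beyond the 10, 81 other iron genes were looked at as lists by role, of which 70 were tested in hippocampus and 64 in microglia. They too were listed with results known. After the young blood plasma preparation 4 of 70 rose at the threshold and none fell, where 3.35% of all genes were past it. The 4 were Cpox and Fdxr, Glrx5 and Pcbp4. After the young platelet fraction 4 of 70 rose and none fell, where 3.87% of all genes were past it, namely Cpox, Fdx1l, Mfsd7b and Cdc14a. The medians over the 70 were 0.03 and 0.05 log2 units, against −0.01 and 0.00 over all genes. Of the markers of red cells and their precursors, which make haem, 1 passed the threshold against saline, only after the platelet fraction. Hba-a1, a haemoglobin chain, was at 27.7 to 126 after saline, 38.7 to 166 after the plasma preparation and 85.3 to 813 after the platelet fraction, and the summed count of the 5 markers was at 80.5 to 169, 80.5 to 167 and 133 to 937. Of the 5, 1 was tested after plasma and did not pass (Hba-a1, log2 difference 0.22 ± 0.41, SE), and 2 after platelets, of which Hba-a1 rose (1.46 ± 0.53) and Hba-a2 did not pass (2.63 ± 1.52). Without the 5 libraries that stood apart 1 red cell marker was tested in each comparison. It did not pass against saline, at −0.27 after plasma and 1.19 after platelets, and passed between the treatments, at 1.46. The part of the red cell markers in the values of the haem genes was not tested.

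Cpox, coproporphyrinogen oxidase of haem synthesis, had the smallest p of the list against saline in both treatments. Saline mice were at 71.5 ± 10.9 (SD, n = 5) and plasma mice at 99.0 ± 16.1 (SD, n = 6), a log2 difference of 0.46 ± 0.15 (SE). Saline mice ran from 60.1 to 87.2 and plasma mice from 80.0 to 120.0, with little overlap. After the platelet fraction the difference was 0.60 ± 0.15, with 87.8 in the highest saline mouse and 87.9 to 139.7 in the treated mice, in the separately scaled platelet table.

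Of the mitochondrial genes, Fdxr, the reductase that feeds electrons to ferredoxin, had a difference of 0.38 ± 0.13 (SE) after the plasma preparation, and Glrx5, which passes on iron-sulphur clusters, of 0.35 ± 0.15. Fdx1l, the ferredoxin now named Fdx2 that serves cluster assembly, had a difference of 0.25 ± 0.10 after the platelet fraction. Pcbp4, a relative of the cytosolic iron chaperones, differed by 0.19 ± 0.09 after the plasma preparation. Mfsd7b, the older symbol of the haem exporter Flvcr1, differed by 0.63 ± 0.27 and Cdc14a, a phosphatase whose human mRNA has a form with an iron-responsive hairpin, by 0.66 ± 0.29 after the platelet fraction, both from low values of 9.75 to 29.2 and 12.5 to 30.2 in saline mice. Without the 5 libraries that stood apart 1 of the list passed after plasma, Cpox (0.45), and 2 after platelets, Cpox (0.65) and Iscu (0.64), a scaffold for iron-sulphur clusters named here after its values were seen. In that setting Fdxr was at 0.22, Glrx5 at 0.36 and Pcbp4 at 0.097 after plasma, and Fdx1l at 0.25, Mfsd7b at 0.53 and Cdc14a at 0.38 after platelets.

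Between the 2 treatments 0 of 70 passed by limma, edgeR or DESeq2, and the 3 smallest p-values belonged to Fdx1l (0.16 ± 0.08, SE), Ncoa4 (0.13 ± 0.07), the receptor that delivers ferritin to lysosomes, and Fdxr (−0.26 ± 0.17). The remaining roles, uptake and reduction (10 tested), hepcidin and export control (5) and the NRF2 targets that share a regulator with Hmox1 (7), had no gene past the threshold in any of the hippocampal comparisons.

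In microglia none of the 10 genes passed the threshold after PF4, and the differences between libraries of the same group were as large as those between groups. Trf was at 60927, 110769 and 124826 in saline replicates 2, 3 and 4, and at 80387, 75261, 111838 and 108018 in PF4 replicates 1, 2, 3 and 4. The PF4 values all fell within the saline range, with a log2 difference of −0.03 ± 0.26 (SE). Trf was thus among the abundant transcripts of these libraries although the oligodendrocyte marker Mog was at 0 in 5 of the 7, at 0.761 in PF4 replicate 1 and at 798 in PF4 replicate 4.

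Of the 15 oligodendrocyte markers, 13 had a read in each microglia group, with a summed normalized count of 7210 to 34425 after saline and 5135 to 198381 after PF4. The part of RNA from other cells in the Trf of these libraries was not tested.

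Tfrc spread more than any other iron gene in microglia. It was at 608, 9.87 and 111 in saline replicates 2, 3 and 4 and at 675, 379, 325 and 198 in PF4 replicates 1 to 4, so that only PF4 replicate 1 was above every saline library. The log2 difference was 1.99 ± 1.375 (SE), and it ran from 0.46 to 3.36 when libraries were left out in turn. Saline replicate 3 held 8 reads of Tfrc. Cldn5, a junction protein of brain endothelium, whose cells carry much transferrin receptor, was at 31893, 9858 and 3788 in the saline libraries and 27961, 19989, 5918 and 4007 in the PF4 libraries. The 3 libraries highest in Cldn5 were the 3 highest in Tfrc, and all 7 endothelial markers were found, with a summed count of 8758 to 64568 after saline and 8484 to 60247 after PF4. Hba-a1, of red cells and their precursors, was at 16415, 1344 and 694 and at 7771, 20854, 175 and 7281. The part of either in Tfrc was not tested.

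Slc11a2 was at 2310, 695 and 2284 after saline and 850, 1154, 1517 and 1279 after PF4, all of the latter within the saline range, with a difference of −0.39 ± 0.47 (SE). The ferritin chains Fth1 and Ftl1 were steadier. Fth1 was at 80273, 57204 and 63437 after saline and 56841, 64291, 51038 and 117395 after PF4 (0.05 ± 0.28). PF4 replicate 4, the highest in Fth1, also held the most Mbp (168405), while saline replicate 2, the next in Fth1, held 648. The part of RNA from other cells in Fth1 was not tested. Ftl1 was at 216461, 277685 and 274407 after saline and 227288, 214544, 232306 and 254493 after PF4 (−0.14 ± 0.16).

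Of the export genes, Slc40a1 was at 3004, 2891 and 3969 after saline and 3973, 4553, 5192 and 2447 after PF4, with 3 of 4 PF4 libraries above every saline library and 1 below, a difference of 0.26 ± 0.29 (SE). Cp was at 1035, 550 and 213 after saline and 397, 271, 230 and 247 after PF4, a difference of −0.82 ± 0.75 in which saline replicate 2 was the highest. Of the sensing genes, Aco1 was at 1252, 3068 and 1700 and at 1256, 903, 1818 and 1661 (−0.46 ± 0.40). Ireb2 was at 135, 114 and 153 and at 231, 63.6, 103 and 90.9 (−0.29 ± 1.20), with a standard error that limma sets partly by genes of like level. Hmox1 was at 9222, 10192 and 8304 after saline and at 5440, 7520, 11158 and 6138 after PF4, with 3 of 4 PF4 libraries below every saline library and the fourth, replicate 3, above them (−0.34 ± 0.25).

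**Figure D4:**
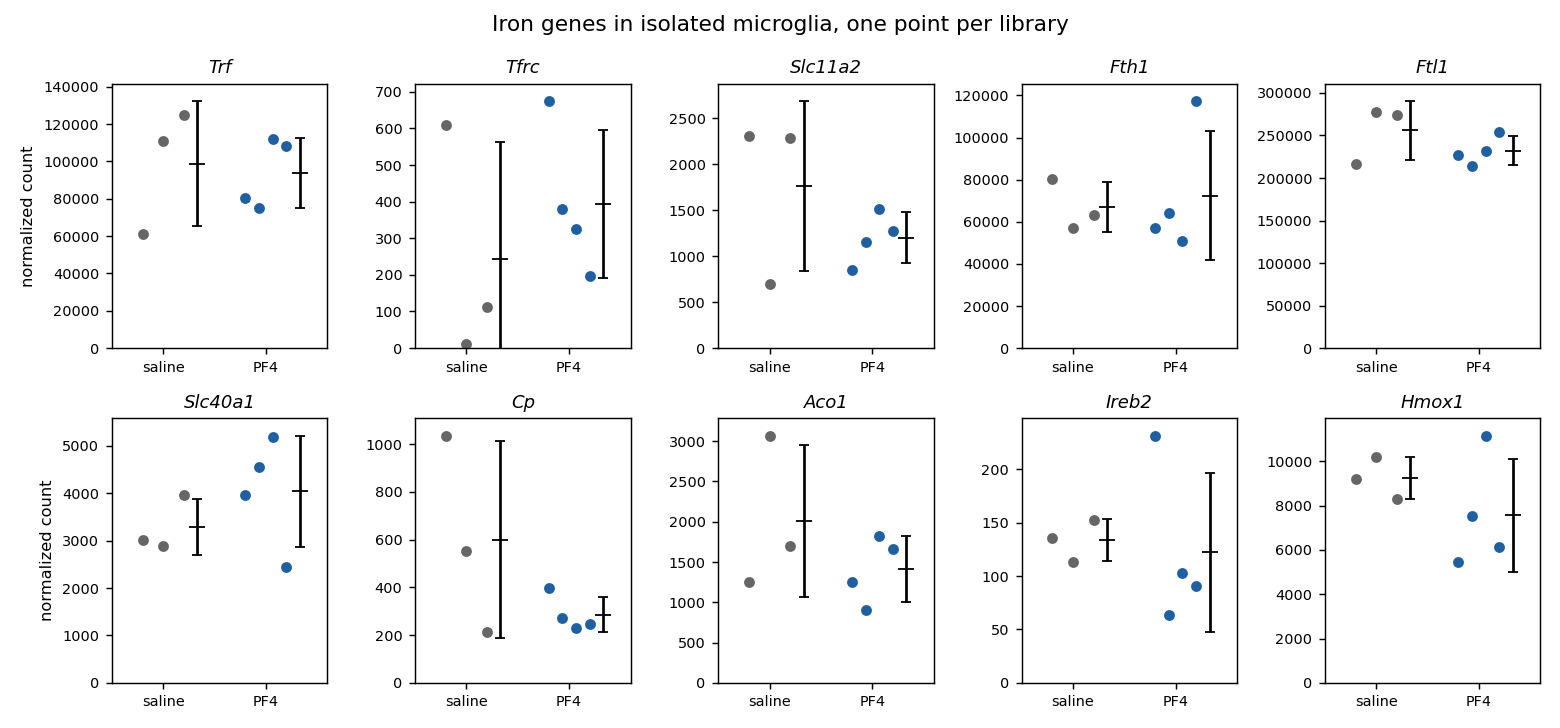
Normalized count of each iron gene in isolated microglia, from 0 upwards, with a point per library after saline (grey, n = 3) and PF4 (blue, n = 4) and the mean ± SD as a black bar, which is clipped at 0 for Tfrc. The groups overlap for every gene; Tfrc runs from 9.87 to 608 within saline alone.

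Without the 3 libraries high in choroid plexus transcripts, an alternative chosen after seeing the data, still 0 of 10 genes passed, and Tfrc, now of 2 libraries a group, differed by 3.75. Fth1 and Ireb2 changed sign, to −0.16 and 0.23, and Cp was at −0.18. The remaining differences were −0.31 for Trf, −0.15 for Slc11a2, −0.265 for Ftl1, 0.42 for Slc40a1, −0.595 for Aco1 and −0.24 for Hmox1. With all libraries, 0 of the 64 other iron genes tested passed 0.01 by limma, and 3 had an unadjusted P below 0.05 (edgeR 0, DESeq2 3). Of all 11320 genes, 391 had an unadjusted P below 0.05 by limma, 257 by edgeR and 423 by DESeq2. Among the 3 iron genes of limma was Cdc14a, which ran from 0 to 99.96 after saline and from 137 to 889 after PF4. Another was Blvrb, a biliverdin reductase, at 2052 ± 435 (SD, n = 3) and 1148 ± 406 (SD, n = 4) in the groups. The median over the 64 was 0.14 log2 units, against 0.03 over all genes tested.

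The ferritin chains held opposite ranks in the 2 kinds of sample. Per kilobase, Fth1 was 3.27 to 5.63 times Ftl1 in the 17 hippocampi (mean 4.25 ± 0.633, SD) and 0.215 to 0.481 times Ftl1 in the 7 microglia libraries (mean 0.304 ± 0.0979, SD), with no overlap. The ratio is taken within a library and does not depend on its scaling, and the transcripts are of like length (929 and 968 bases). Within hippocampus it was 4.08 ± 0.234 (SD, n = 5) in saline mice, 4.11 ± 0.757 (SD, n = 6) after the plasma preparation and 4.53 ± 0.722 (SD, n = 6) after the platelet fraction, and within microglia 0.281 ± 0.0925 (SD, n = 3) with saline and 0.321 ± 0.112 (SD, n = 4) with PF4, each difference within the spread of its groups. The samples were prepared in different ways, bead isolation against whole tissue, and preparation and cell type cannot be told apart here.

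**Figure D5:**
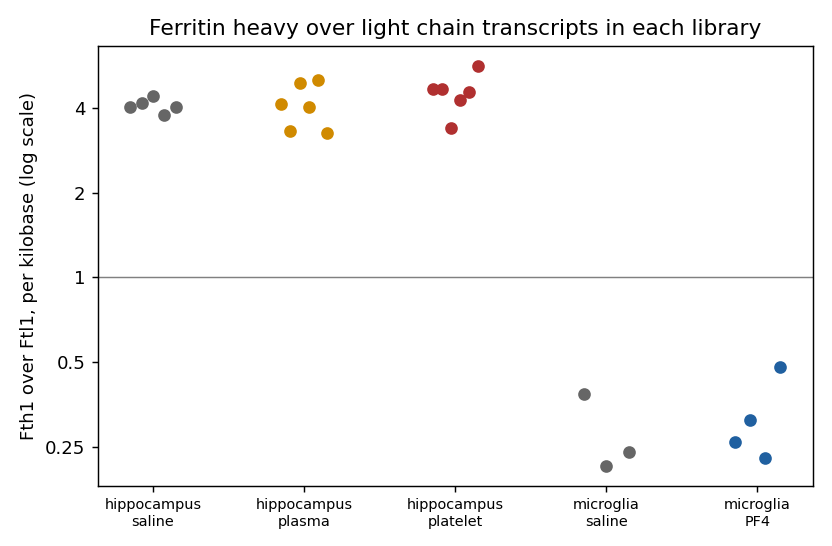
Ratio of Fth1 to Ftl1 per kilobase of transcript in each library, on a log scale, with the line at 1 marking equal levels. All 17 hippocampi lie between 3.27 and 5.63 and all 7 microglia libraries between 0.215 and 0.481.

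Other ranks also differed. On the same scale, the order in microglia was Ftl1 (9938 ± 815, SD, n = 7), Fth1 (2993 ± 938), Trf (1477 ± 330), Hmox1 (210 ± 51.2), Slc40a1 (44.0 ± 12.1), Slc11a2 (18.9 ± 8.39), Aco1 (17.2 ± 6.76), Cp (4.17 ± 2.99), Tfrc (2.73 ± 2.10) and Ireb2 (0.881 ± 0.396). The ranges of Slc40a1, Slc11a2 and Aco1 overlapped, as did those of Cp and Tfrc and of Tfrc and Ireb2, while Cp (2.04 to 10.4) stood above Ireb2 (0.450 to 1.67) in range. By their means Hmox1 and Slc40a1, which follow Slc11a2 in the hippocampal order, precede it in microglia, Hmox1 without overlap. By normalized counts within a library, Slc40a1 was 0.373 to 2.46 times Tfrc in hippocampus and 4.94 to 293 times Tfrc in microglia. The hippocampal ratio was highest in the 5 libraries that stood apart, which were low in Tfrc. The ratio of 293 is from saline replicate 3, with 8 reads of Tfrc, and the next highest in microglia was 35.6. Aco1 was 2.42 to 7.12 times Ireb2 in hippocampus and 5.43 to 27.0 times in microglia, with these ranges overlapping.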

How the data were processed

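Per the labels and the methods of the study, the authors extracted RNA with TRIzol, aligned reads to mm10 with STAR, estimated counts per gene with RSEM and normalized them in DESeq2. The labels name a kit that keeps strand after poly(A) selection and the methods a modified Smart-Seq2 protocol, and neither settles which was used, so sense and antisense reads of overlapping genes may be mixed. The deposited signal is a normalized count per gene and library, in 3 tables of 24411 genes. The log2 fold changes of saline over treated, test scores, p-values and means that the authors deposited beside them, from their own DESeq2 comparison, were not used. Every value was a whole multiple of a step of its library (tolerance 0.01 read), which gave back whole counts for 100% of values. These counts rest on the RSEM estimates and are called reads here. Reads carry no molecular identifiers, so counts are not independent molecules.

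Samples were grouped by their labels. Log2(normalized count + 1) was fitted for the 2 groups of each comparison in limma-trend (limma version 3.58.1, R version 4.3.3), over all genes that reached a normalized count of 10 in 5 or more hippocampal libraries or 3 or more microglia libraries, and differences are treated minus saline. The platelet table was put on the scale of the plasma table by the median ratio of the shared saline libraries (0.995). The alternatives were the recovered reads in edgeR (4.0.16) or DESeq2 (1.42.0), other pseudocounts (0.5, 5), a filter at 50 or none, scaling by TMM or by library totals, marker covariates, a single fit of all hippocampal groups, a replicate block and omission of libraries. The fit was tested on simulated data. Levels per kilobase use 1 transcript per gene of GENCODE M21, chosen by its APPRIS and support tags.

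The 10 genes, the gene lists and the tests were chosen with earlier results of these data known. The text names the 10 genes, those of the 81 other iron genes past the threshold or with the 3 smallest p-values in a comparison, the first gene of each marker list where a result touches it, and the 5 genes most like Trf. The marker Mog, named outside this rule, was chosen after its values were seen. Of the genes the rule names, 1 is not reported here. Files matched 81 of 81 other iron genes, 5 of them by an older symbol in RefSeq. RefSeq protein sequences were not used here.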

Additional observations from a re-analysis of the deposited data

Results flagged for a closer look

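In the 4 groups of 4 to 6 libraries, 48 sets of values were looked at: 40 of the 10 genes, and 8 of the Fth1 to Ftl1 ratio and of Trf relative to the oligodendrocyte markers. Of these, 4 held a library whose gap to its nearest neighbour was above the critical value of Dixon's test on log2 values. Chance gives about 1 in 20 such sets. Tfrc was at 131 in young platelet fraction mouse 7148, the lowest of its group, which is also among the 5 libraries that stood apart. Slc11a2 was at 398 in young platelet fraction mouse 7151, the highest of its group. Ftl1 was at 5213 in young platelet fraction mouse 7145, the lowest of its group. Aco1 was at 337 in saline mouse 7596, the lowest of its group.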

How the results depend on the processing

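Of the 10 iron genes, 1 passed the threshold after the young blood plasma preparation. This count was 2 with edgeR, DESeq2, TMM scaling, library totals or a filter at 50, and 0 with oligodendrocyte markers as a covariate or without the 5 libraries that stood apart. After the young platelet fraction it was 2, and 0 under both of those. With the markers as a covariate the differences of Trf and Fth1 after the platelet fraction reversed, to −0.139 and −0.038. Of the other differences of single genes under an alternative, 871 moved by less than the spread within groups and 7 by more. The cause of these changes was not tested. Leaving out 1 library at a time gave 0 to 2 genes for plasma, 1 to 3 for platelets, 0 to 1 between the treatments and 0 to 0 for PF4, where every other alternative also gave 0.

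Over all genes, 456 passed for plasma (201 with oligodendrocyte markers as a covariate, 300 without the 5 libraries, 297 to 617 leaving out 1), 527 for platelets (276 with the covariate, 344 to 870 leaving out 1), 259 between the treatments (474 with no filter, 205 to 440 leaving out 1) and 44 for PF4 (179 with DESeq2, 9 without the 3 libraries high in choroid plexus transcripts, 22 to 123 leaving out 1). Of the other iron genes, 4 passed for plasma (1 with the covariate, 1 without the 5 libraries, 2 to 4 leaving out 1), 4 for platelets (1 with the covariate, 2 without the 5 libraries, with edgeR or with the filter at 50, 1 to 6 leaving out 1), 0 between treatments (1 with no filter or with the covariate, 0 to 1 leaving out 1) and 0 for PF4 (0 to 2 leaving out 1).

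Saline and PF4 microglia share replicate numbers 2, 3 and 4. Deviations of same-numbered libraries correlated at 0.136, 0.059 and 0.032, and those of differently numbered ones at −0.2 to 0.197. So few libraries do not show a pairing and cannot exclude one. With a replicate block 0 of the 10 genes passed after PF4, and 29 genes in all. Depth limits the low genes most: Tfrc rests on 8 reads in microglia saline replicate 3.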
